A study of Mus musculus with 9 samples.

Results

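The TRIM family is a large group of proteins, most of them ubiquitin ligases. Its members were taken as every gene in the files with a symbol of Trim, a number and at most one letter from a to e. This gave 68 of 56775 genes, and 44 of the 68 had enough reads to be tested. RNA was sequenced from mouse bone marrow-derived macrophages of the C57BL/6 background, grown for 7 days in medium with 15% supernatant of L-929 fibroblasts. The 3 groups had 3 libraries each. The first was MKP5-/- cells (MKP5-KO) given oxidized low-density lipoprotein (ox-LDL) at 20 µg/mL for 24 h. The second was wild-type (WT) cells treated the same way, and the third was WT cells at 0 h, untreated. MKP5, encoded by Dusp10, is a phosphatase of stress-activated MAP kinases, and ox-LDL is the lipoprotein cargo that turns macrophages into foam cells. Untreated MKP5-KO cells and WT cells cultured for the added 24 h without treatment were not analysed here, so the effect of ox-LDL and that of time in culture cannot be told apart. Nor can a genotype difference present before treatment be told apart from a changed response to ox-LDL. The labels do not say whether replicates came from separate mice. The p-values then measure only the spread between these libraries, which may be technical.

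Most TRIM proteins have a RING finger, 1 or more B-boxes and a coiled coil, but some, such as Trim14 and Trim16, lack the RING. The RING recruits an E2 enzyme loaded with ubiquitin, the coiled coil pairs the proteins, and a variable end, often a PRY-SPRY domain, binds the target. In macrophages the family is best known for its part in sensing viral RNA and DNA and in holding back NF-kB and interferon signalling, and many of its genes are themselves switched on by interferon. Others act on chromatin, microtubules, the endoplasmic reticulum or damaged lysosomes.

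Interferon-induced genes often carry an interferon-stimulated response element (ISRE), with a core that reads GAAA, any 2 bases and GAAA again (TTTC, any 2 bases and TTTC on the other strand). RefSeq promoters of 300 bases around the gene start (GRCm38.p6) were searched for it on both strands. Overlapping copies were counted. It was present in 3.44% of 32851 promoters, and 3.97% of the tested genes with a promoter had it. Promoters were found for 53 members, 34 of them tested. The core stood in 8 of 14 tested members of the interferon-inducible list (57.1%) and in 1 of the 20 other tested members (5%), Trim2. That list holds known interferon-responsive genes, chosen with earlier results of these data in view, so its higher share is a description. The 8 are not independent: Trim30a and Trim30d hold the same core, as do the related Trim5, Trim12a and Trim12c. The stretches before the gene start are shown for the 5 members that have the core there, because most of them belong to the group that fell with ox-LDL. They run 5′ to 3′ on the gene's strand, with the core in capitals. Trim30a lies at chr7:104465194-104465259, Trim30d at chr7:104507851-104507920, Trim12c at chr7:104353350-104353408 and Trim5 at chr7:104288116-104288185, all on the minus strand. Trim26 lies at chr17:36836956-36837031 on the plus strand and has 2 overlapping copies.
Trim30a: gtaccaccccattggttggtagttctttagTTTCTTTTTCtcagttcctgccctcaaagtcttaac
Trim30d: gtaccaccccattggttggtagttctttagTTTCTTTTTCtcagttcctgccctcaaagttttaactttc
Trim12c: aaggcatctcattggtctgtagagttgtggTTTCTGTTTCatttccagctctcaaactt
Trim5: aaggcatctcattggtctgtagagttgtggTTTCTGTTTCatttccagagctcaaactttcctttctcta
Trim26: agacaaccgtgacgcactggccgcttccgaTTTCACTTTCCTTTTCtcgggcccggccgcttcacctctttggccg
The Trim30a and Trim30d stretches were identical at 65 of 66 bases, and those of Trim12c and Trim5 at 57 of 59. Trim21, Trim12a and Trim34a had the core just after the gene start. The windows of Trim25, Trim30b, Trim30c, Trim34b, Trim56 and Trim6 did not hold these letters. Such a match describes the letters and does not show a bound site.

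The libraries held 11102492 to 19810427 recovered reads, with MKP5-KO the shallowest group. Levels are given as CPM, the reads per 1000000 of the scaled library. Dusp10 averaged 0.307 ± 0.0739 CPM in MKP5-KO and 1.87 ± 0.2 CPM in WT at 24 h (SD, n = 3 each). It was lower in MKP5-KO (log2 fold change -2.50, SE 0.259, adjusted p = 9.18e-05). All 10 macrophage markers were present, with a summed level of 12300 to 14200 CPM in MKP5-KO, 18100 to 21000 CPM in WT at 24 h and 7730 to 8080 CPM in WT at 0 h. Lyz2 made up much of these sums, with a mean of 5760 CPM in MKP5-KO, 10900 CPM in WT at 24 h and 3020 CPM in WT at 0 h. Of the 10, 7 rose and 3 fell in WT at 24 h over WT at 0 h, and 3 rose and 5 fell in MKP5-KO. Cd68, Cd14 and Fcgr1 went against the sums, lower in WT at 24 h than at 0 h and higher in MKP5-KO than in WT of the same time. The summed level of 10 neutrophil markers was 49.3 to 54.8, 69.5 to 76.6 and 143 to 152 CPM in the same order. At 24 h most of it was Csf3r and Mmp8, which rose in WT at 24 h over WT at 0 h, while the other 7 tested markers fell. Among these, S100a9 averaged 0.106 CPM in MKP5-KO, 0.0489 CPM in WT at 24 h and 29.2 CPM in WT at 0 h. Camp, Elane and Retnlg were at 0 in both groups at 24 h, and Mpo was also at 0 in MKP5-KO. Fibroblast markers summed to 15.7 to 33.5 CPM in MKP5-KO, 105 to 127 CPM in WT at 24 h and 7.87 to 11 CPM in WT at 0 h, and none of the 11 was at 0. Markers of dendritic cells, B cells, T and NK cells and erythroid cells each summed to at most 6.85 CPM in any library. In bulk RNA, fewer cells of a type and less RNA per cell cannot be told apart.

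Of the 68 members, 24 were not tested. No read was found in any library for 11 of them: Trim10, Trim31, Trim42, Trim43b, Trim52, Trim54, Trim58, Trim60, Trim61, Trim63 and Trim80. A further 13 had 1 to 23 reads over the 9 libraries together. They include Trim38, Trim69, Trim71 and Trim72. All members of the muscle type, Trim54, Trim55 and Trim63, were among the 24.

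Levels between genes are given per kilobase of exon. In MKP5-KO the highest was Trim25, which ubiquitinates the RNA sensor RIG-I, at 45.2 ± 2.65 CPM per kb (SD, n = 3). Trim8 at 37.5 ± 0.685 and Trim28 at 37.5 ± 2.34 CPM per kb came next and could not be told apart. WT at 24 h had the same first 3, with Trim25 at 48.4 ± 3.09, Trim8 at 38.4 ± 1.38 and Trim28 at 36.1 ± 1.32 CPM per kb. There Trim30a, a mouse TRIM that restrains NF-kB signalling, ranked 5th at 28.4 ± 1.23 CPM per kb. In WT at 0 h, Trim30a was highest at 74.5 ± 1.6 CPM per kb, and Trim25 followed at 72.9 ± 2.93 CPM per kb, a difference within their spread. The lowest in WT at 0 h was Trim66 at 0.0406 ± 0.0297 CPM per kb, so the tested members spanned more than 3 orders of magnitude there. The lowest level was 0.131 ± 0.0432 CPM per kb in MKP5-KO (Trim17) and 0.102 ± 0.00812 CPM per kb in WT at 24 h (Trim66), a narrower span in each.

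**Figure D1:**
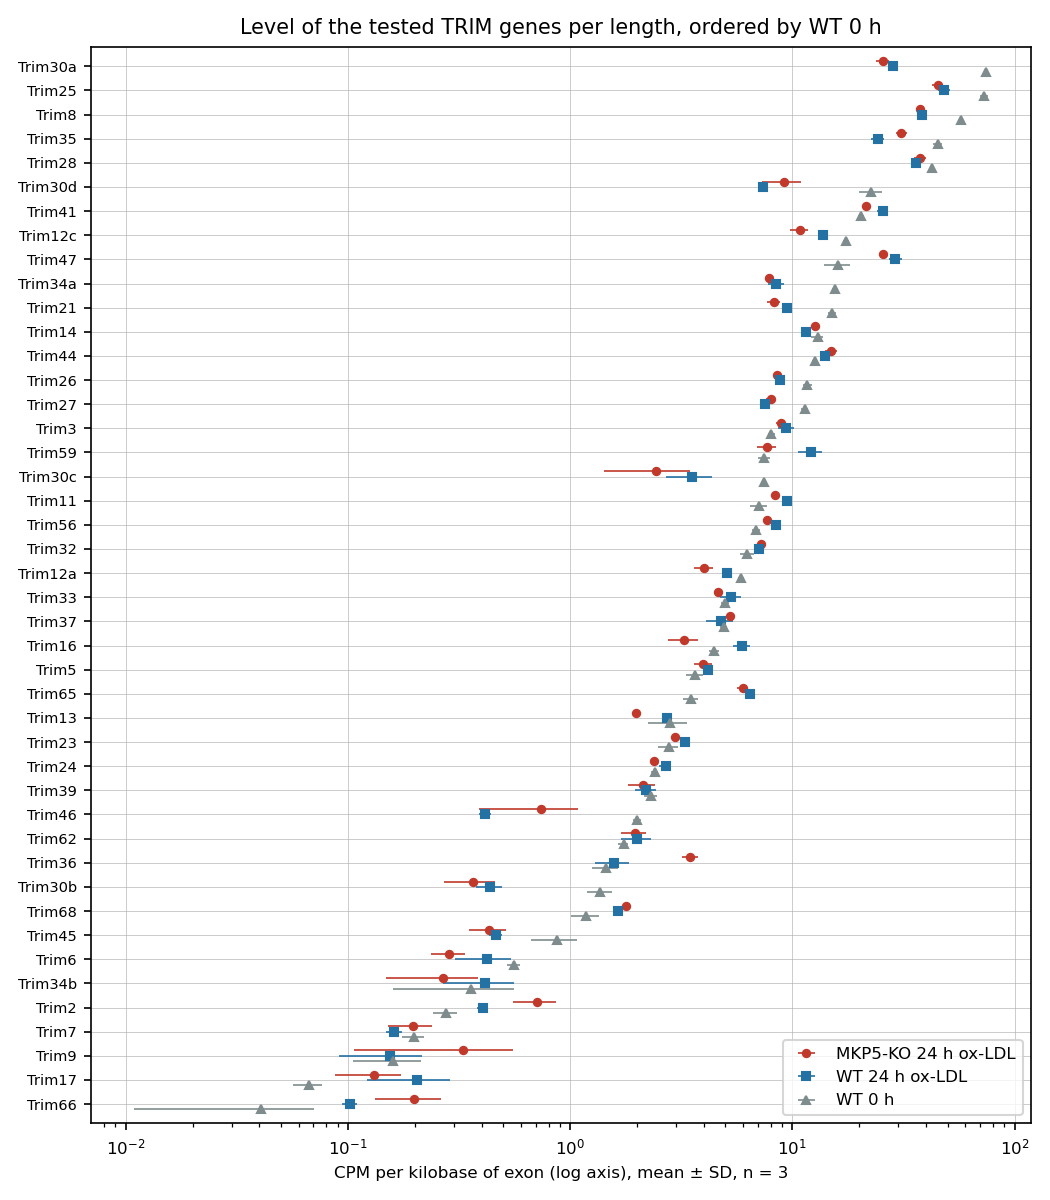
Mean level of the 44 tested TRIM genes in CPM per kilobase of exon on a log axis, with bars for the SD over 3 libraries, in MKP5-KO at 24 h with ox-LDL (circles), WT at 24 h with ox-LDL (squares) and WT at 0 h (triangles). Genes are ordered by WT 0 h, where Trim30a led at 74.5 CPM per kb, while at 24 h it stood at 25.5 CPM per kb in MKP5-KO and 28.4 in WT.

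The family took a smaller share of the RNA at 24 h. Summed over all 68 members, the level was 1840, 1880 and 1880 CPM in the WT 24 h libraries, against 2360, 2460 and 2460 CPM in the WT 0 h libraries. The 15 members of the interferon-inducible list summed to 755, 774 and 803 CPM in WT at 24 h, against 1200, 1270 and 1270 CPM in WT at 0 h. The other 53 members summed to 1090, 1100 and 1080 CPM in WT at 24 h, against 1160, 1190 and 1190 CPM in WT at 0 h. In each sum the 2 groups of 3 libraries did not overlap. Such sums weigh abundant members most. Trim30a averaged 117 CPM in WT at 24 h and 306 CPM in WT at 0 h, and Trim25 279 and 419 CPM. Outside the list, Trim35 averaged 112 and 209 CPM and Trim8 143 and 213 CPM, in the same order. Log2 fold changes were positive for 21 of the 44 tested members and negative for 23. Among the 29 outside the list, 18 were positive and 11 negative. MKP5-KO stood at 1750, 1850 and 1810 CPM for the family and at 690, 771 and 707 CPM for the interferon-inducible list, and both ranges overlapped those of WT at 24 h.

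The first comparison set WT cells after 24 h with ox-LDL against WT cells at 0 h. It called 28 of the 44 tested members (63.6%) at an adjusted p under 0.05, against 55.6% of all 14728 tested genes. Of these, 11 rose and 17 fell, where 27.4% of all genes rose and 28.1% fell. The median log2 fold change was -0.04 over the members and 0 over all genes. Groups did not overlap for 31 of 44 members, against 64.2% of all genes, and 7 members changed at least 2-fold, against 17% of all genes. As a share, the family's calls stood near those of all genes. With upper-quartile scaling 15 members rose and 15 fell.

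Most members of the interferon-inducible list fell, while the other members moved both ways. Of the 15 listed members 11 fell, 1 rose and 3 did not pass the test, with a median log2 fold change of -0.44. This was 80% called, against 55.6% of all genes. Among the 29 other tested members 10 rose and 6 fell, with a median of 0.16. Their share of 55.2% called lay at that of all genes. The list was assembled from known interferon-responsive TRIM genes with earlier results of these data in view, so its direction is a description. With upper-quartile scaling 9 of the 15 fell and 2 rose, the second riser being Trim5. Under that scaling 4442 of all 14728 genes rose and 3919 fell. Neutrophil markers, with the sums given above, fell in 7 of 9 tested cases, and their part in these values was not tested.

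The Trim30 genes, mouse relatives of primate TRIM5, showed the largest falls of the list. Trim30a had 118, 111 and 122 CPM in WT at 24 h, against 299, 308 and 311 CPM in WT at 0 h. It was 2.62-fold lower (log2 fold change -1.39, SE 0.0583, adjusted p = 9.56e-09), without any overlap of libraries. Trim30d had 28.4, 28.3 and 26.6 CPM in WT at 24 h, against 74.6, 94.2 and 85.9 CPM in WT at 0 h, 3.04-fold lower (-1.60, SE 0.132, adjusted p = 1.97e-06). These are the 2 genes whose promoter stretches differ at 1 base. Trim30b had 3.77, 3.08 and 2.97 CPM in WT at 24 h, against 10.4, 11.6 and 8.98 CPM in WT at 0 h, and was 3.14-fold lower (adjusted p = 0.000169). Trim30c had 4.99, 5.51 and 7.62 CPM in WT at 24 h, against 12.5, 12.6 and 13.1 CPM in WT at 0 h, and was 2.14-fold lower (adjusted p = 0.00774). All 4 fell by at least 2-fold without overlap. The ISRE core was found for Trim30a and Trim30d only.

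Trim34a, Trim21 and Trim25 fell less. Trim34a had 23.6, 22.4 and 20 CPM in WT at 24 h, against 39.4, 40 and 41.8 CPM in WT at 0 h (-0.88, SE 0.0691, adjusted p = 9.46e-07). Trim21, a cytosolic receptor for antibodies bound to virus, had 33.4, 37 and 34.8 CPM in WT at 24 h, against 54.2, 58.6 and 55.9 CPM in WT at 0 h (-0.68, SE 0.0687, adjusted p = 6.92e-06). Trim25 had 264, 274 and 299 CPM in WT at 24 h, against 400, 427 and 431 CPM in WT at 0 h (-0.59, SE 0.061, adjusted p = 8.38e-06). None of the 3 overlapped between groups.

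Falls of 1.33-fold or less were measured for the remaining called members. Trim26, reported in human cells to target IRF3, had 57.7, 61 and 62.3 CPM in WT at 24 h, against 76, 82.5 and 82 CPM in WT at 0 h (-0.41, adjusted p = 0.000208). Trim12c, a relative of Trim5, had 50.5, 51.4 and 53.4 CPM in WT at 24 h, against 63.7, 63.6 and 67.4 CPM in WT at 0 h (-0.33, adjusted p = 0.00208). Both stood apart between groups. Its neighbour Trim12a had 29, 30 and 29 CPM in WT at 24 h, against 35.3, 33.7 and 33.2 CPM in WT at 0 h (-0.22, adjusted p = 0.0471). Trim14, a RING-less adaptor of the MAVS pathway, had 47.6, 51.7 and 50.9 CPM in WT at 24 h, against 53.4, 60.1 and 55.3 CPM in WT at 0 h (-0.17, adjusted p = 0.049). These 2 calls lay at the threshold. That of Trim12a was lost in 10 of 19 alternatives (adjusted p up to 0.136), among them without any one WT library or MKP5-KO replicate 3. That of Trim14 was lost in 12 (adjusted p up to 0.187), among them without WT 0 h replicate 2 or 3 or any one library of the groups at 24 h.

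Trim56, a ligase of the cGAS and STING pathway, was the list's only rise. It had 77, 79.4 and 78.4 CPM in WT at 24 h, against 63.9, 61.2 and 66.3 CPM in WT at 0 h (0.30, SE 0.0636, adjusted p = 0.00203), without overlap. Trim5 had 15.4, 16.2 and 14.6 CPM in WT at 24 h, against 13.2, 12.5 and 14.8 CPM in WT at 0 h (0.19, adjusted p = 0.13). Trim6, which builds free ubiquitin chains in interferon signalling, had 1.47, 2.62 and 2.13 CPM in WT at 24 h, against 2.88, 2.52 and 2.81 CPM in WT at 0 h (-0.44, adjusted p = 0.212). Both sets overlapped. Trim34b, with 4 to 22 reads a library, had 1.08, 0.643 and 0.576 CPM in WT at 24 h, against 0.761, 0.257 and 0.973 CPM in WT at 0 h (0.33, adjusted p = 0.626).

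**Figure D2:**
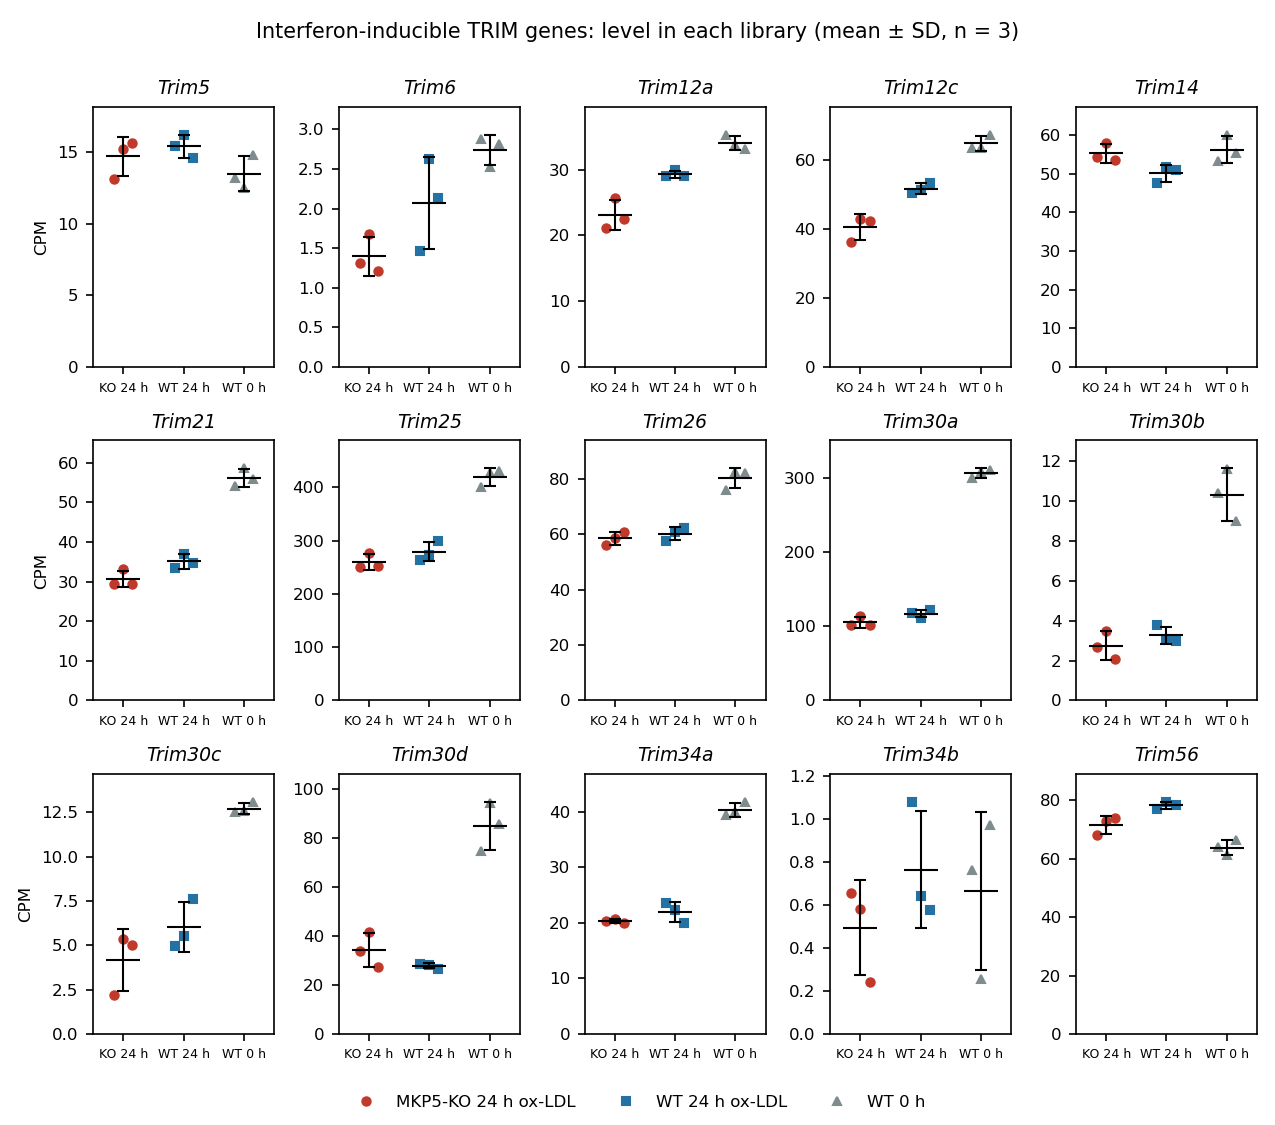
Level in CPM of the 15 interferon-inducible TRIM genes in each library, with points for libraries and bars for the mean ± SD of 3, in MKP5-KO at 24 h (circles), WT at 24 h (squares) and WT at 0 h (triangles). Trim30a to Trim30d, Trim34a, Trim21 and Trim25 sat lower in both groups at 24 h than at 0 h, while Trim56 sat higher in them.

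Of the 10 listed members whose promoter was found and that fell, 7 held the ISRE core and 3 did not. Of the 3 with a promoter that did not pass the test, 1 held it, and the 1 that rose did not. Whether the core has a part in these changes was not tested. On chromosome 7, 10 members of the list lie next to each other, from Trim6 over Trim34a, Trim5, Trim12a, Trim34b, Trim12c, Trim30b, Trim30c and Trim30a to Trim30d, with the predicted gene Gm38525 among them. Of these 10, 7 fell and none rose (70% called, against 55.6% of all genes), with a median log2 fold change of -0.66. Those 7 are among the listed members that fell, counted above. With upper-quartile scaling 6 fell and Trim5 rose. Some of these neighbours share sequence. Of all stretches of 50 bases, 56.8% of Trim34b were also found in Trim34a and 39.8% of Trim34a in Trim34b. Trim12c shared 24.2% with Trim5, Trim5 shared 23.5% with Trim12c, and Trim12a shared 10.4% with other genes. Trim30a shared 5.98% with Trim30d. How reads that match several genes were counted is not given in the sources used here, so the values of Trim34a, Trim34b, Trim5, Trim12a and Trim12c are uncertain to that extent. Trim14 overlaps Nans on the opposite strand over 31.3% of its length, and other genes there as well. The use of strand is not given either.

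Outside the list, the PRY-SPRY ligases Trim35 and Trim27 and the RING protein Trim8 fell. Trim35, reported in human cells to target IRF7, had 119, 114 and 103 CPM in WT at 24 h, against 206, 220 and 201 CPM in WT at 0 h. This was 1.87-fold lower (log2 fold change -0.90, SE 0.0648, adjusted p = 4.8e-07). Trim8, a ligase that tunes cytokine and NF-kB signalling, had 137, 142 and 148 CPM in WT at 24 h, against 209, 213 and 216 CPM in WT at 0 h (-0.58, SE 0.0447, adjusted p = 8.3e-07). Neither gene overlapped between groups, and both stayed among the most abundant members per length. Trim27 averaged 41.6 ± 1.7 CPM in WT at 24 h and 63 ± 2.35 CPM in WT at 0 h (-0.60, adjusted p = 1.13e-05).

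The rises with the smallest p were found for a neighbouring pair on chromosome 11. Trim65, which ubiquitinates the RNA sensor MDA5, had 37.2, 36.7 and 40.3 CPM in WT at 24 h, against 19.8, 19.4 and 22.4 CPM in WT at 0 h. It rose 1.86-fold (log2 fold change 0.89, SE 0.0845, adjusted p = 4.2e-06). Trim47, a PRY-SPRY ligase, had 75.7, 85.7 and 77.7 CPM in WT at 24 h, against 39.3, 41.2 and 50.4 CPM in WT at 0 h, a rise of 1.83-fold (0.87, SE 0.0855, adjusted p = 5.41e-06). Each gene stood apart between groups. Their exons overlap on the same strand, over 8.23% of Trim47 and 3.82% of Trim65, so a part of their reads could be shared. Among the 24 tested PRY-SPRY ligases with a RING, 6 rose and 12 fell (75% called, against 55.6% of all genes), with a median of -0.31. Of those that fell, all but Trim35 and Trim27 belong to the interferon-inducible list, and all 6 that rose lie outside it. The other 4 that rose were Trim11 (0.42, adjusted p = 0.00051), Trim41 (0.32, adjusted p = 0.000596), Trim68 (0.47, adjusted p = 0.0152) and Trim17 (1.45, adjusted p = 0.0107). Trim17 rested on 14, 11 and 25 reads in WT at 24 h, against 5, 4 and 5 reads in WT at 0 h, and 17.7% of its stretches are shared with the histone gene Hist3h2a. Its call was lost without WT 24 h replicate 3 (adjusted p = 0.0574), and that of Trim68 without WT 0 h replicate 3 (adjusted p = 0.0638).

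The TIF1 genes encode chromatin-bound members with a PHD finger and a bromodomain. Trim28, the corepressor of KRAB zinc finger proteins that silences transposons, had 151, 155 and 144 CPM in WT at 24 h, against 177, 181 and 173 CPM in WT at 0 h (a log2 fold change of -0.24, SE 0.0548, adjusted p = 0.0031). The fall was small but without overlap. Trim24 had 21.4, 23.1 and 24.2 CPM in WT at 24 h, against 19.6, 20.7 and 21.1 CPM in WT at 0 h (0.16, adjusted p = 0.189). Trim33, which acts with PU.1 in macrophages, had 49.2, 48.6 and 58.6 CPM in WT at 24 h, against 46.5, 49.7 and 50.5 CPM in WT at 0 h (0.09, adjusted p = 0.432). Neither passed the test. Trim66 rose (1.48, SE 0.493, adjusted p = 0.0238) on 23, 21 and 23 reads in WT at 24 h, against 5, 4 and 14 reads in WT at 0 h, and 5 of 18 alternatives did not call it (adjusted p up to 0.0915), among them those without WT 0 h replicate 1 or 2 or WT 24 h replicate 1 or 3.

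Members with other domains moved both ways. Trim46, a COS box protein known for bundling microtubules in axons, had the largest fall of the family. It averaged 1.57 ± 0.0966 CPM in WT at 24 h and 7.58 ± 0.291 CPM in WT at 0 h, 4.77-fold lower (log2 fold change -2.25, SE 0.277, adjusted p = 3.4e-05). Trim59, a membrane-anchored ligase, averaged 40.6 ± 4.83 CPM in WT at 24 h and 25 ± 1.52 CPM in WT at 0 h (0.69, SE 0.0991, adjusted p = 0.000109). Trim16, a RING-less member that marks damaged lysosomes, rose to 27 ± 2.37 CPM in WT at 24 h, against 20.4 ± 1.01 CPM in WT at 0 h (0.41, adjusted p = 0.00941). It overlaps Fbxw10 on the same strand over 5.19% of its length. Trim3, with NHL repeats, rose by 0.22 (adjusted p = 0.024) and Trim45 fell by 0.88 (adjusted p = 0.0104). Trim3 lost its call without WT 0 h replicate 1 or 3 or WT 24 h replicate 1, with an adjusted p of up to 0.102, and Trim45 without WT 0 h replicate 2 (adjusted p = 0.0532). Of the members not yet named, Trim7, Trim23, Trim32, Trim37, Trim39, Trim44, Trim62 and Trim9 did not pass the test, with log2 fold changes between -0.29 (Trim7) and 0.24 (Trim23). Trim2 did not pass it either (0.55, adjusted p = 0.0854), although its groups did not overlap. In 3 of 19 alternatives it was called higher (adjusted p down to 0.00496). Of all 28 calls, 21 held in every alternative.

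**Figure D3:**
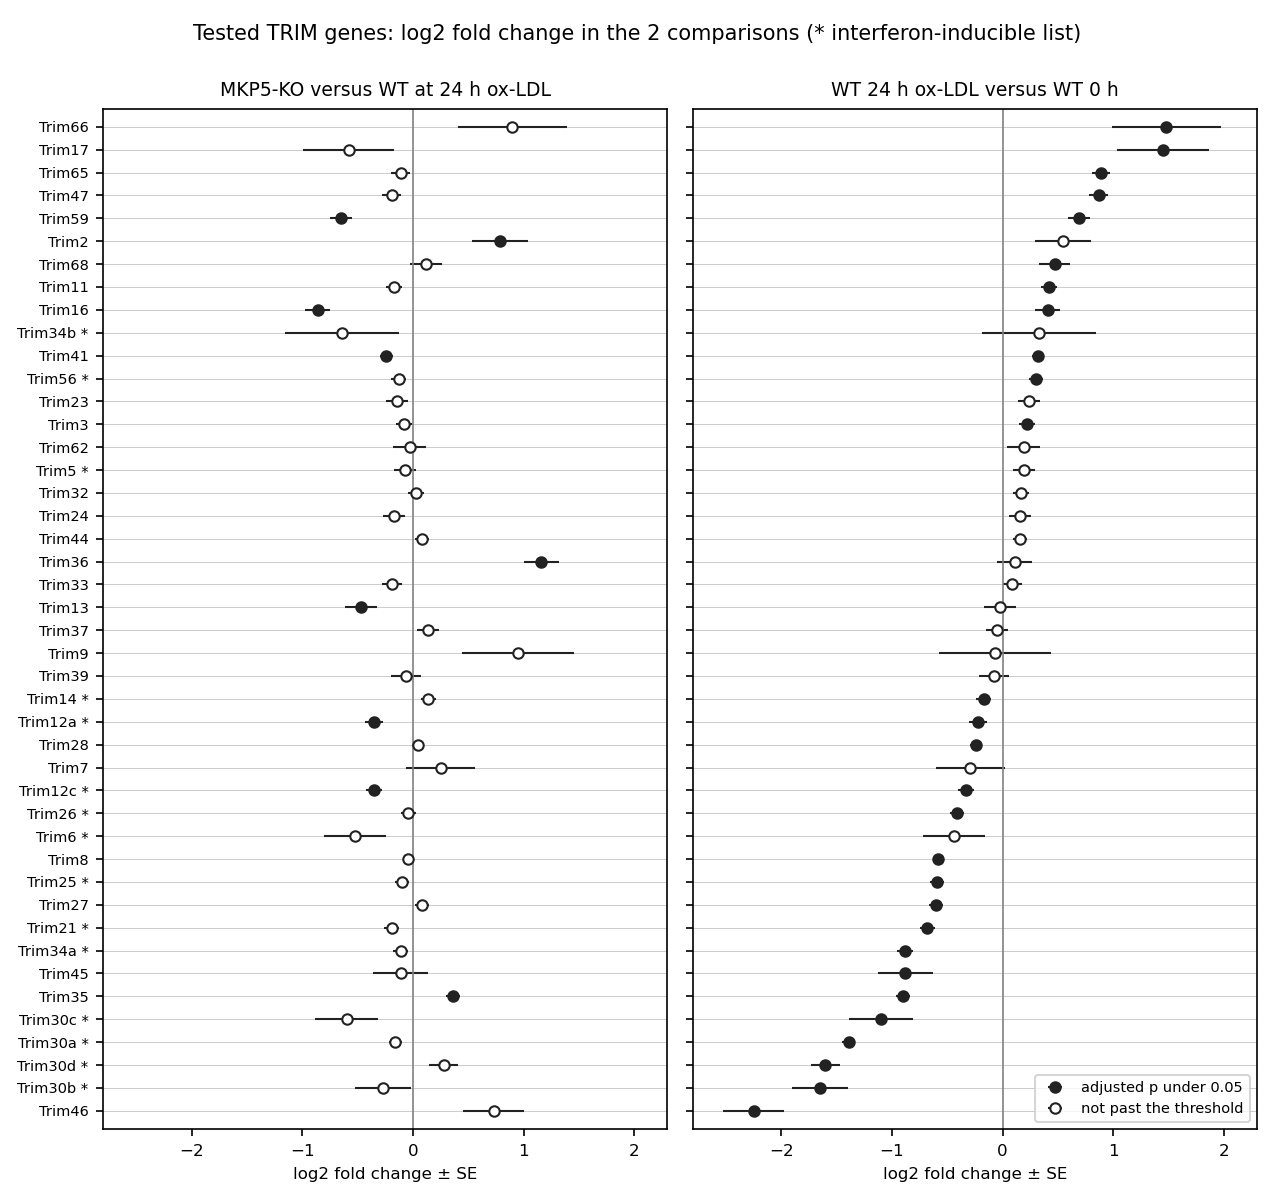
Log2 fold change ± SE of the 44 tested TRIM genes, with MKP5-KO over WT at 24 h on the left and WT at 24 h over WT at 0 h on the right, ordered by the right panel. Filled points passed the test (9 on the left, 28 on the right), and a star marks the interferon-inducible list, whose called members lie low in the order except Trim56. Both panels use the WT 24 h libraries.

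Genes that work with the TRIM proteins were followed as lists, and their counts stand beside the 27.4% of all genes that rose and the 28.1% that fell. Of 11 RNA and DNA sensing partners 5 fell and 4 rose (81.8% called, against 55.6% of all genes). The sensor RIG-I (Ddx58), the substrate of Trim25, had 84.5, 84.7 and 84.9 CPM in WT at 24 h, against 196, 219 and 226 CPM in WT at 0 h (log2 fold change -1.33, adjusted p = 1.72e-07). Irf7, which turns on interferon genes, had 46.2, 41.1 and 34 CPM in WT at 24 h, against 506, 573 and 555 CPM in WT at 0 h (-3.76, adjusted p = 6.71e-08). On the log2 scale, the regulator Dhx58 fell by 1.98 and MDA5 (Ifih1), the substrate of Trim65, by 1.18. In contrast Rnf135, another ligase of RIG-I and no TRIM gene by name, rose by 0.71 (adjusted p = 6.71e-06).

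In interferon signalling 4 of 7 genes rose and 3 fell, and the sizes that follow are log2 fold changes. The receptor chain Ifnar2 rose by 0.57, while the transcription factor Stat2 fell by 1.93. All 5 genes for conjugation of the ubiquitin-like Isg15 fell. Isg15 itself fell by 4.11 and its E2 enzyme Ube2l6 fell by 1.97. The Isg15 protease Usp18 fell by 3.69. Of 11 ubiquitin E2 enzymes used by TRIM proteins 8 fell and none rose (72.7% called), with a median of -0.36. Ube2n and Ube2v1, which make K63-linked chains, fell by 0.40 and 0.48. Of 11 genes of the Trim28 repressor complex 3 rose and 3 fell (54.5% called), with the remodeller Chd3 at 0.44 and the deacetylase Hdac2 at -0.51. Of the family's members under other names, Pml, which forms nuclear bodies, fell by 0.50 and Mid1, a microtubule-bound ligase, rose by 0.59 (adjusted p = 0.0454).

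The second comparison set MKP5-KO against WT, both after 24 h with ox-LDL. It called 9 of the 44 tested members (20.5%), against 28.7% of all tested genes. Of these, 3 rose and 6 fell, where 11.8% of all genes rose and 16.9% fell. The median log2 fold change was -0.10 over the members and -0.05 over all genes. Groups did not overlap for 20 of 44 members, against 44.9% of all genes, and 1 member changed at least 2-fold, against 5.57% of all genes. The share of calls that were higher depended on scaling, with 41.1% of all calls here, 51.4% under relative log expression factors and 61% under upper-quartile factors. Those factors moved all differences by 0.05 and 0.09 on the log2 scale. With upper-quartile scaling 6 members rose and 5 fell, and Trim14, Trim27 and Trim44 joined the rises.

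Trim36 showed the largest called difference. This COS box ligase is known for binding microtubules. It had 17.7, 15.5 and 18.3 CPM in MKP5-KO, against 9.3, 7.07 and 6.82 CPM in WT at 24 h. It was 2.24-fold higher (log2 fold change 1.16, SE 0.157, adjusted p = 0.00044), with every MKP5-KO library above every WT library. Between WT at 24 h and WT at 0 h, where it averaged 7.73 ± 1.36 and 7.14 ± 0.965 CPM, it did not pass the test (0.11, adjusted p = 0.59). Trim35 had 135, 150 and 144 CPM in MKP5-KO, against 119, 114 and 103 CPM in WT at 24 h (0.36, SE 0.0648, adjusted p = 0.00257). Its groups stood apart as well. Trim2, an NHL-repeat ligase of neurofilaments, averaged 14 ± 3.11 CPM in MKP5-KO and 7.98 ± 0.485 CPM in WT at 24 h (0.79, SE 0.254, adjusted p = 0.0377). Of 19 alternatives 7 did not call it (adjusted p up to 0.106), among them those without MKP5-KO replicate 1 or 3 or any one WT 24 h library.

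Trim16 and Trim59 were the largest falls in MKP5-KO. Trim16 had 13.5, 13.8 and 17.6 CPM in MKP5-KO, against 25, 29.6 and 26.5 CPM in WT at 24 h. It was 1.81-fold lower (log2 fold change -0.86, SE 0.113, adjusted p = 0.000369). Trim59 had 25.4, 23.6 and 28.5 CPM in MKP5-KO, against 42.4, 44.3 and 35.1 CPM in WT at 24 h, 1.57-fold lower (-0.65, SE 0.0991, adjusted p = 0.000912). All MKP5-KO libraries lay below all WT 24 h libraries for both genes. Trim41 had 72.8, 78.1 and 75.8 CPM in MKP5-KO, against 83.6, 93.9 and 91.1 CPM in WT at 24 h (-0.24, SE 0.057, adjusted p = 0.00981). Trim13, a ligase of the endoplasmic reticulum, had 3.28, 3.16 and 3.33 CPM in MKP5-KO, against 4.65, 4.64 and 4.3 CPM in WT at 24 h (-0.47, SE 0.143, adjusted p = 0.0317). Trim13 shares 14.2% of its stretches with Gm9359. For Trim13 the call was lost in 11 of 19 alternatives (adjusted p up to 0.0963), among them without any one library of either group.

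Trim16, Trim59 and Trim41 were the members called higher in WT at 24 h than at 0 h and lower in MKP5-KO, 2 comparisons that share the WT 24 h libraries. A high value in those libraries raises one difference and lowers the other. How many of all genes were called this way was not counted. Most proliferation genes moved in the same directions. Of 8, 7 rose in WT at 24 h over WT at 0 h, where 27.4% of all genes rose. In MKP5-KO 6 of the 8 fell, where 16.9% of all genes fell. Mcm5, which helps to unwind DNA for replication, was called the other way in both, with 105 ± 3.92 CPM in MKP5-KO, 67.3 ± 17.4 CPM in WT at 24 h and 132 ± 0.725 CPM in WT at 0 h (a log2 fold change of 0.68 between genotypes, adjusted p = 0.00794, and of -1.01 with ox-LDL, adjusted p = 0.000179). The list's summed level was 928 to 1090 CPM in MKP5-KO, 1210 to 1660 CPM in WT at 24 h and 980 to 1100 CPM in WT at 0 h. Mki67 had 351, 377 and 448 CPM in MKP5-KO, 759, 761 and 578 CPM in WT at 24 h and 425, 367 and 450 CPM in WT at 0 h. None of the 8 was at 0 in any group. The fibroblast markers, with the sums given above, rose in 7 of 9 tested cases in WT at 24 h over WT at 0 h. In MKP5-KO 7 of the 9 fell. Thy1 was called higher in MKP5-KO (0.85, adjusted p = 0.0145) and was not called between the WT groups. Pdgfra passed the test in neither comparison, and Dcn and Lum were not tested. The part of proliferation genes or fibroblast markers in the values of Trim16, Trim59 and Trim41 was not tested.

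The interferon-inducible list had 2 calls of 15 in MKP5-KO (13.3%, against 28.7% of all genes), both lower, and a median log2 fold change of -0.16. Without MKP5-KO replicate 2 there were 4 lower calls, with Trim21 and Trim30a added. In 3 alternatives 1 listed member was called higher, Trim14 under relative log expression and upper-quartile factors and Trim30d without MKP5-KO replicate 3. Trim12c had 36.3, 43.1 and 42.3 CPM in MKP5-KO, against 50.5, 51.4 and 53.4 CPM in WT at 24 h (-0.35, SE 0.0706, adjusted p = 0.00415). Trim12a had 21.1, 25.7 and 22.5 CPM in MKP5-KO, against 29, 30 and 29 CPM in WT at 24 h (-0.35, SE 0.0839, adjusted p = 0.0115). Both were lower without overlap, and the pair are related genes that lie close together. Trim21 had 29.5, 33.1 and 29.5 CPM in MKP5-KO, against 33.4, 37 and 34.8 CPM in WT at 24 h, and stood just short of the threshold (-0.19, adjusted p = 0.0571). It passed in 3 of 19 alternatives, one of them without MKP5-KO replicate 2.

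Another 6 listed members, each averaging over 20 CPM in both genotypes, did not pass the test. Trim25 had 250, 277 and 252 CPM in MKP5-KO, against 264, 274 and 299 CPM in WT at 24 h (-0.10, adjusted p = 0.234). Trim30a had 101, 114 and 101 CPM in MKP5-KO, against 118, 111 and 122 CPM in WT at 24 h (-0.16, adjusted p = 0.0681). Both sets overlapped, and Trim30a passed the test without MKP5-KO replicate 2 (adjusted p = 0.0225). Trim14 had 54.4, 58.1 and 53.5 CPM in MKP5-KO, against 47.6, 51.7 and 50.9 CPM in WT at 24 h (0.14, adjusted p = 0.124). Trim56 had 68, 72.8 and 74 CPM in MKP5-KO, against 77, 79.4 and 78.4 CPM in WT at 24 h (-0.13, adjusted p = 0.147). These 2 genes did not overlap but did not pass the test either. Trim26 had 56.1, 58.6 and 60.8 CPM in MKP5-KO, against 57.7, 61 and 62.3 CPM in WT at 24 h (-0.04, adjusted p = 0.64). Trim34a had 20.3, 20.7 and 19.9 CPM in MKP5-KO, against 23.6, 22.4 and 20 CPM in WT at 24 h (-0.11, adjusted p = 0.252).

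The other 6 listed members did not pass the test either. Trim30d had 33.8, 41.5 and 27.5 CPM in MKP5-KO, against 28.4, 28.3 and 26.6 CPM in WT at 24 h (0.28, adjusted p = 0.13), and passed the test without MKP5-KO replicate 3 (adjusted p = 0.0178). Trim30c had 2.19, 5.36 and 5.02 CPM in MKP5-KO, against 4.99, 5.51 and 7.62 CPM in WT at 24 h (-0.60, adjusted p = 0.142). Trim30b had 2.7, 3.49 and 2.06 CPM in MKP5-KO, against 3.77, 3.08 and 2.97 CPM in WT at 24 h (-0.27, adjusted p = 0.442). None of the 3 separated the genotypes. Trim5 had 13.1, 15.2 and 15.6 CPM in MKP5-KO, against 15.4, 16.2 and 14.6 CPM in WT at 24 h (-0.07, adjusted p = 0.627). Trim6 had 1.31, 1.68 and 1.21 CPM in MKP5-KO, against 1.47, 2.62 and 2.13 CPM in WT at 24 h (-0.52, adjusted p = 0.183). Trim34b had 0.656, 0.581 and 0.242 CPM in MKP5-KO, against 1.08, 0.643 and 0.576 CPM in WT at 24 h (-0.64, adjusted p = 0.371).

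Outside the list, 22 tested members did not pass the test, Trim24, Trim28, Trim33 and Trim66 among them, with log2 fold changes between -0.58 (Trim17) and 0.95 (Trim9). The wide end was made of scarce members: Trim9 had 8.53, 2.26 and 3.75 CPM in MKP5-KO, against 3.33, 1.79 and 1.68 CPM in WT at 24 h (adjusted p = 0.179). Trim46 had 4.3, 2.2 and 1.88 CPM in MKP5-KO, against 1.52, 1.51 and 1.68 CPM in WT at 24 h (0.73, adjusted p = 0.0703). MKP5-KO replicate 1 was the highest library in both.

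**Figure D4:**
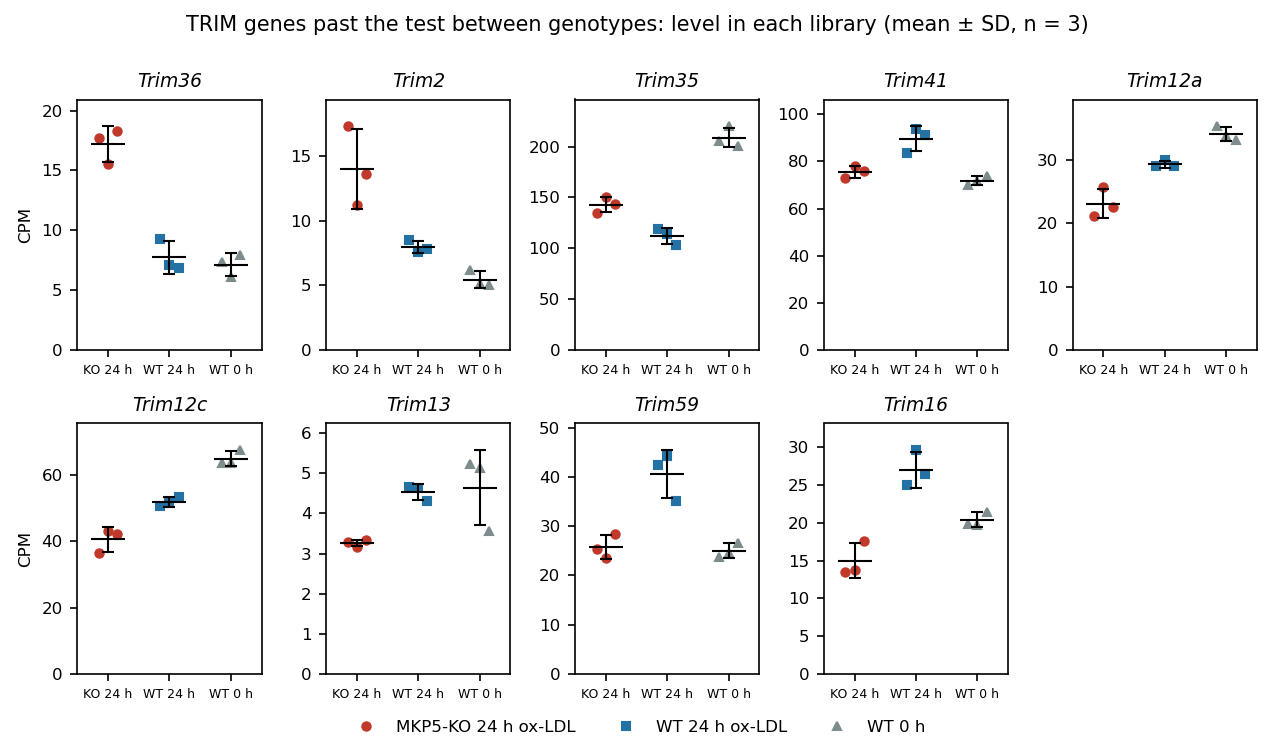
Level in CPM of the 9 TRIM genes past the test between genotypes, in each library, with points for libraries and bars for the mean ± SD of 3, in MKP5-KO at 24 h (circles), WT at 24 h (squares) and WT at 0 h (triangles). Trim36, Trim2 and Trim35 sat above WT at 24 h in MKP5-KO, and the other 6 sat lower without overlap.

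No TIF1 gene passed the test between genotypes. Trim28 had 153, 148 and 167 CPM in MKP5-KO, against 151, 155 and 144 CPM in WT at 24 h (log2 fold change 0.05, adjusted p = 0.486). Trim24 had 19.7, 20.8 and 20.5 CPM in MKP5-KO, against 21.4, 23.1 and 24.2 CPM in WT at 24 h (-0.17, adjusted p = 0.211). Trim33 had 43.3, 46.7 and 46.2 CPM in MKP5-KO, against 49.2, 48.6 and 58.6 CPM in WT at 24 h (-0.19, adjusted p = 0.122). Trim24 and Trim33 were lower in every MKP5-KO library than in any WT 24 h library but did not pass the test. Trim66 lay the other way, with 2.77, 1.61 and 1.63 CPM in MKP5-KO, against 1.13, 0.964 and 1.02 CPM in WT at 24 h (0.90, adjusted p = 0.19). Its groups did not overlap either. Of the 11 genes of the Trim28 repressor complex 5 fell and none rose (45.5% called, against 28.7% of all genes), among them the heterochromatin protein Cbx3 (-0.29, adjusted p = 0.00949) and the histone methyltransferase Setdb1 (-0.24, adjusted p = 0.0345).

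Of the partner genes, 5 of 11 sensing partners (45.5%), 2 of 7 interferon signalling genes (28.6%), 2 of 5 genes for Isg15 conjugation (40%) and 1 of 11 E2 enzymes (9.09%) were called between genotypes, against 28.7% of all genes. Irf7 had 90.6, 102 and 56 CPM in MKP5-KO, against 46.2, 41.1 and 34 CPM in WT at 24 h (a log2 fold change of 1.00, SE 0.19, adjusted p = 0.00369). Isg15 had 14.4, 17.4 and 11.5 CPM in MKP5-KO, against 10.8, 7.71 and 8.77 CPM in WT at 24 h (0.66, adjusted p = 0.00982), and Ube2l6 was also higher (0.34, adjusted p = 0.0118). These 3 stood above WT in every MKP5-KO library, at levels well under those of WT at 0 h. Of the sensing partners, Irf7 and Ikbke rose, and Mavs (-0.26), Rnf135 (-0.28) and Tbk1 (-0.17) fell. In interferon signalling Jak1 (-0.22) and Ifnar2 (-0.20) fell and 5 of 7 genes did not pass the test. Ube2e2 was the only one of 11 E2 enzymes called (0.63, adjusted p = 0.011). Pml was lower (-0.33, adjusted p = 0.00178) and Mid1 higher (0.73, adjusted p = 0.0323) in MKP5-KO.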

How the data were processed

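Each deposited file held 1 value per gene for a library: the log2 of a normalized count, with the library's TMM factor in the header, per the file headers. The submitters' processing notes name STAR and GRCm39; the aligner's version, annotation, counting tool and strand use are not given in the sources used. Each value equalled the log2 of (reads + 0.5) over gene length, shifted by 1 constant for the library. Reads were recovered with GENCODE M21 exon lengths. Of 50125 genes that could be checked 96% came out whole, as did 65 of the 68 members. The tolerance was 0.004 reads, or the rounding error of the deposited value where that was larger, as for abundant genes. Trim9 needed a fitted length, and Trim25 and Trim28 had too many reads to check. CPM is counts per 1000000 of the TMM-scaled library size.

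A gene was tested if 3 or more libraries reached 10 reads (scaled to the median depth) and its total was 15 or more. Group means were fitted to the log2 values of all 9 libraries with limma 3.58.1 in R 4.3.3 (trend and robust options). The trend followed the mean of these values, which are per gene length, and not the read level. A count test had been planned for the case of deposited counts. Tests were two-sided, with Benjamini-Hochberg adjustment over all 14728 tested genes and a threshold of 0.05. The model was tested on simulated data. Depth of 11102492 to 19810427 reads limits genes with few reads, whose folds the added 0.5 reads understate. Members and gene lists were chosen with earlier results of these data known. Values per library are given, for each comparison, for the 8 members with the smallest p, the interferon-inducible list, Trim24, Trim28 and Trim33. Of each partner list, up to 4 genes with the smallest p were named, and others after their values were seen. M21 and the promoter table are on GRCm38, so no coordinate was carried between builds. In all, 19 alternatives were run: other scaling, filters, moderation, weights, an added count of 2 reads, a replicate block and each library left out.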

Additional observations from a re-analysis of the deposited data

How the results depend on the processing

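The ox-LDL comparison called 9 to 15 members higher and 14 to 17 lower over the 19 alternatives. The genotype comparison called 2 to 6 higher and 5 to 7 lower, and the 6, under upper-quartile factors, was the family count that moved by over 1.5 times. Within the interferon-inducible list, the lower genotype calls went to 4, in place of 2, without MKP5-KO replicate 2, the higher ones to 1, in place of 0, in 3 alternatives, and the ox-LDL rises to 2, in place of 1, under upper-quartile factors. With the replicate block the counts were 11 higher and 16 lower for ox-LDL and 3 higher and 7 lower for MKP5-KO. Same-numbered libraries of different groups correlated at -0.023 to 0.194 in their deviations from the group means. Differently numbered ones correlated at -0.168 to 0.123. The highest values were those of MKP5-KO replicate 1 with WT 0 h replicate 1 (0.194) and WT 24 h replicate 1 (0.146). These values do not settle whether the numbers pair the samples. The labels do not say what a number marks, so no pairing was used in the main model. The trend on read level, in place of level per length, was added after seeing the data. It called 14 members higher and 17 lower for ox-LDL, and 4 higher and 5 lower for MKP5-KO. Among the changes, Trim2 was called higher for ox-LDL (adjusted p = 0.00496) and Trim13 lost its call for MKP5-KO (adjusted p = 0.074). Of the 28 ox-LDL calls 21 held in every alternative, and of the 9 genotype calls 7 did. No called difference changed sign. Sign changes were found for uncalled differences near 0. For ox-LDL, upper-quartile factors added 0.04 to every log2 fold change. For MKP5-KO, relative log expression factors added 0.05 and upper-quartile factors 0.09. For the sign changes with 1 library left out, the cause was not tested. With upper-quartile factors Trim13 stood at 0.02 for ox-LDL, and Trim26 at 0.04, Trim3 at 0.01, Trim5 at 0.02 and Trim8 at 0.05 for MKP5-KO. With relative log expression factors Trim26 stood at 0.0041 and Trim8 at 0.01. With 1 library left out, Trim13 ranged from -0.20 to 0.08, Trim34b from -0.22 to 0.69 and Trim36 from -0.03 to 0.19 for ox-LDL, and Trim45 from -0.23 to 0.04 and Trim5 from -0.12 to 0.01 for MKP5-KO. Depth limits Trim17, Trim34b and Trim66, which had 4 to 38 reads a library.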
